A study of Mus musculus with 3 samples.

Results

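The genes described here are 10 of the 22457 genes counted in mouse regulatory T cells (Treg cells) that carry or control calcium entry: the calcium sensors Stim1 and Stim2, the pore genes Orai1 and Orai2, the calcium release channels Itpr1, Itpr2 and Itpr3, the potassium channels Kcna3 and Kcnn4, and the channel kinase Trpm7. They were listed by name from the pathway, with no threshold on their values but with earlier results of these data known. All 10 were found in the count tables. Polyadenylated RNA was sequenced from primary Treg cells of the mouse (male, adult, 4 months old). The labels give no number of animals, strain, allele, treatment or sort gate. They describe 3 libraries as technical replicates 1, 2 and 3 of 1 biological replicate, with no second condition. No comparison between conditions exists, so SDs and p-values here reflect only how libraries of the same biological sample vary, which may be technical.

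In T cells, antigen receptor signals activate phospholipase C, which makes inositol trisphosphate (IP3). IP3 opens the IP3 receptors (Itpr genes) in the endoplasmic reticulum, and the store empties. STIM proteins sense the loss of stored calcium and open ORAI channels in the plasma membrane, which carry the store-operated calcium current. Potassium efflux through Kv1.3 (Kcna3) and KCa3.1 (Kcnn4) keeps the membrane potential negative and so sustains entry. The calcium then activates calcineurin, which sends NFAT factors to the nucleus. In Treg cells, STIM and ORAI proteins are known to be needed for normal function.

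The libraries held 3316275, 3079004 and 2782259 counts. Levels are counts per 1000000 counts of the library (CPM), as mean ± SD over 3 libraries. Detection required at least 1 CPM in every library, a level that 10611 of 22457 genes (47.3%) reached. The 10 members of a Treg and T cell marker list were all detected, among them Foxp3 with 448, 447 and 407 counts. The 12 B cell markers, 9 of them detected, summed to 73.9, 189 and 216 CPM in libraries 1, 2 and 3, with Pax5 at 0, 1 and 1 counts. In bulk RNA, fewer cells of a type and less RNA per cell cannot be told apart.

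All 10 calcium genes were detected, at mean levels from 12.3 to 312 CPM. Together they held 0.135%, 0.127% and 0.126% of the counts in libraries 1, 2 and 3. Their median of 110 CPM stands beside a median of 45.6 CPM over all detected genes. By CPM, which also reflects transcript length, Trpm7 was highest and Orai2 lowest. Each library's value is given below before the summary over libraries.

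**Figure D1:**
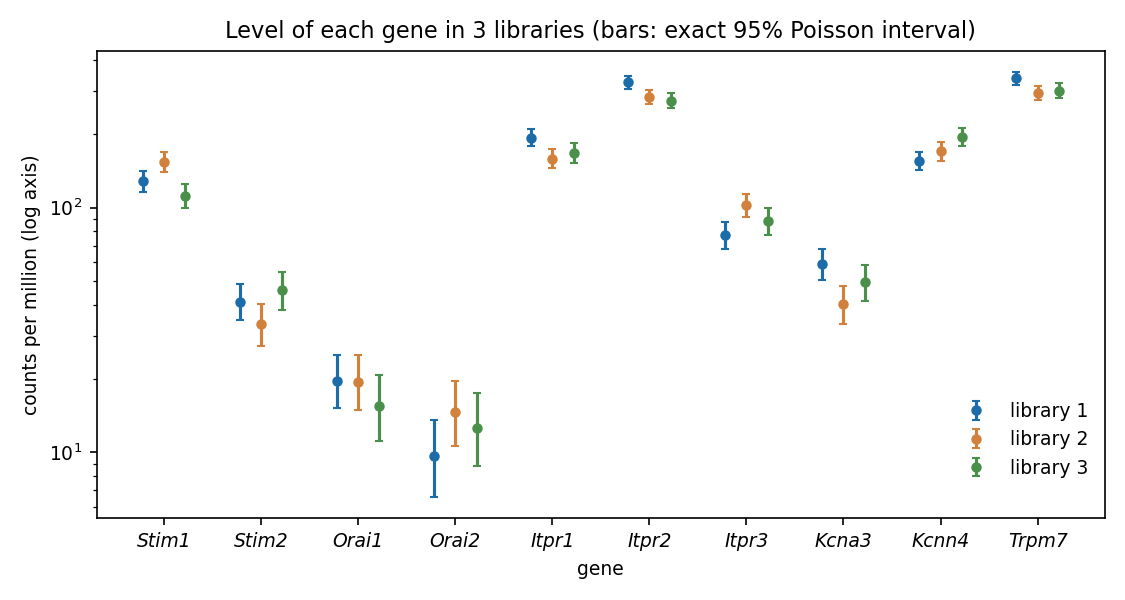
Level of each of the 10 genes in libraries 1, 2 and 3, in CPM on a log axis, with exact 95% Poisson intervals as bars. Trpm7 and Itpr2 lie near 300 CPM while Orai1 and Orai2 lie below 20 CPM in every library.

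Stim1 encodes the main endoplasmic reticulum calcium sensor (chromosome 7, 102267806 to 102437319, plus strand, GRCm38). It had 425, 474 and 312 counts, or 128, 154 and 112 CPM (131 ± 21.1 SD, n = 3). Its highest library was library 2, where the exact Poisson interval of 140 to 168 CPM did not overlap that of library 3, 100.04 to 125 CPM. Stim2 encodes a related sensor that responds to smaller losses of stored calcium (chromosome 5, 53998499 to 54121057, plus strand). It had 137, 103 and 128 counts, or 41.3, 33.5 and 46.01 CPM (40.3 ± 6.34 SD, n = 3). The Stim2 intervals of all 3 libraries overlapped, and Stim1 lay above Stim2 in each library. Neither gene shared a coding 31-mer with the transcripts of another gene, so coding reads of that length or more could be assigned to each. Untranslated regions were not searched.

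Stim1 and Stim2 differed in level, and their start regions are shown to compare their composition. Each RefSeq promoter (GRCm38.p6) covers 300 bases, 250 before and 50 after the start, and capitals mark CpG dinucleotides. Stim1 lies at chr7:102267569-102267868 and Stim2 at chr5:53998273-53998572, both on the plus strand.
Stim1: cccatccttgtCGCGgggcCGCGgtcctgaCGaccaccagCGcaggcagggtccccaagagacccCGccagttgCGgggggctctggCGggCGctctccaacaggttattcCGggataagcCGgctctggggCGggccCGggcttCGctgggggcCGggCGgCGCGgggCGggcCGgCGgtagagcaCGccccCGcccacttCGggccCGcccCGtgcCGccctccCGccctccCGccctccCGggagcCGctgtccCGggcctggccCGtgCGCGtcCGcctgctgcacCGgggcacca
Stim2: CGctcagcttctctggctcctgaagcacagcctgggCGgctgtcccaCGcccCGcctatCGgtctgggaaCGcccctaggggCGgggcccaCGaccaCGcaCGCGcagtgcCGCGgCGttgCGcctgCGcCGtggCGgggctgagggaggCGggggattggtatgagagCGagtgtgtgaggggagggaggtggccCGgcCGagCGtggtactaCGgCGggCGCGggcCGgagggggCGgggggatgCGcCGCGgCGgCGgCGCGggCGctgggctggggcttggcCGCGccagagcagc
The Stim1 promoter held 38 CpGs and the Stim2 promoter 39, against a median of 7 over 32851 promoters of the same length. These letters describe the windows only, and no binding or methylation was measured here.

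Orai1 encodes the principal pore subunit of the store-operated channel (chromosome 5, 123015074 to 123030456, plus strand). It had only 65, 60 and 43 counts, or 19.6, 19.5 and 15.5 CPM (18.2 ± 2.36 SD, n = 3). Orai2, a second pore subunit that can form mixed channels with Orai1 (chromosome 5, 136147459 to 136170713, minus strand), had 32, 45 and 35 counts. That corresponds to 9.65, 14.6 and 12.6 CPM (12.3 ± 2.50 SD, n = 3). Within each of these genes the Poisson intervals of the 3 libraries overlapped. Orai1 stood above Orai2 in each library, but their intervals overlapped in libraries 2 and 3. Orai3, the third pore gene and not among the 10, had 123, 120 and 87 counts (35.8 ± 4.02 CPM) and stood above Orai1 in every library.

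The IP3 receptors are the channels through which the store empties. Itpr2 (chromosome 6, 146108299 to 146502223, minus strand) had 1079, 873 and 763 counts, or 325, 284 and 274 CPM (294 ± 27.2 SD, n = 3). Itpr1 (chromosome 6, 108213096 to 108551109, plus strand) had 642, 489 and 467 counts, or 194, 159 and 168 CPM (173 ± 18.04 SD, n = 3). Both were highest in library 1. Itpr3 (chromosome 17, 27057304 to 27122223, plus strand) had 256, 315 and 246 counts, or 77.2, 102 and 88.4 CPM (89.3 ± 12.6 SD, n = 3). It was highest in library 2 and lowest in library 1. In each library the order was Itpr2, Itpr1 and Itpr3, and the CPM ranges of the 3 genes over libraries did not overlap.

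The 3 receptors are similar proteins, but their coding sequences were nearly distinct at the length of a short read. Itpr2 and Itpr3 had a single coding stretch in common that reached 31 bases. It spans coding bases 6691 to 6722 of Itpr2, counted from the start codon, and is printed because reads inside it cannot be assigned to either gene.
Itpr2 and Itpr3: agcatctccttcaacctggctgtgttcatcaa
Itpr1 shared 2.81% of its coding 31-mers with Gm44101 and Gm44040 on the opposite strand. Itpr3 shared 2.19%, nearly all with Itpr3os on the opposite strand and the rest with Itpr2. Strand use in counting is not given in the sources used here, so counts in those stretches are uncertain.

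Kcnn4 encodes the calcium-activated potassium channel KCa3.1 (chromosome 7, 24370263 to 24386690, plus strand). It had 516, 523 and 543 counts, or 156, 170 and 195 CPM (174 ± 20.04 SD, n = 3). Its counts were within 1.05-fold of each other although the library totals differed, so CPM was highest in library 3, the smallest library. Kcna3 encodes the voltage-gated channel Kv1.3 (chromosome 3, 107036169 to 107038070, plus strand). It had 195, 124 and 138 counts, or 58.8, 40.3 and 49.6 CPM (49.6 ± 9.26 SD, n = 3). Kcna3 was highest in library 1 and lowest in library 2, whose intervals of 50.8 to 67.7 and 33.5 to 48.02 CPM did not overlap. Kcnn4 stood above Kcna3 in every library.

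The promoters of the potassium channel genes differed in CpG content, and both are shown for that contrast. Kcnn4 lies at chr7:24370013-24370312 and Kcna3 at chr3:107035912-107036211, both on the plus strand of GRCm38.p6, with CpGs in capitals.
Kcnn4: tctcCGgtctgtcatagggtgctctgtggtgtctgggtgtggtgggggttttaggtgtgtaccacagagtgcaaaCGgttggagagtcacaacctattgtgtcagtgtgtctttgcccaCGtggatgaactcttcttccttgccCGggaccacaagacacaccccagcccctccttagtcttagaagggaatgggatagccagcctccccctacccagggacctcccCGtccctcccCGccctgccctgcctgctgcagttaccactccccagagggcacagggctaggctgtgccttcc
Kcna3: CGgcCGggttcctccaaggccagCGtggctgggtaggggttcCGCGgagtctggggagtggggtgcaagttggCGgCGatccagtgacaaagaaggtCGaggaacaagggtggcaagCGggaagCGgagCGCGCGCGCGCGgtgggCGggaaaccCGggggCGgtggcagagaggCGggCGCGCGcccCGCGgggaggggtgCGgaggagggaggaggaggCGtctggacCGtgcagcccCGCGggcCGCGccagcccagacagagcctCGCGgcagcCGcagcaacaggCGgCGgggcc
Kcnn4 held 6 CpGs (observed over expected 0.226), and Kcna3 held 37 (0.952). RefSeq promoters were matched for 9 of the 10 genes, and the other 8 held 24 to 39 CpGs. Of all 32851 promoters, 47.9% held 6 or fewer CpGs and 19.98% held 24 or more. A GC box (GGGCGG, either strand) was found in 8 of the 9 windows, all but Trpm7, against 35.7% of all promoters. A TATA box (TATAAA, either strand) was found in none of the 9, against 13.6% of all promoters. An E box (CACGTG) was found in 4, against 7.15%, and a CCAAT box in 3, against 37.4%. The NFAT core (GGAAAA), ETS (CCGGAAG) and forkhead (GTAAACA) motifs were found in none, against 23.4%, 8.86% and 3.65%. The shares over all promoters are not matched for GC content.

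Kcna3 shared 2.32% of its coding 31-mers, all with Kcna10, a related voltage-gated channel gene. The 2 stretches lie at coding bases 1024 to 1064 and 1066 to 1120 of Kcna3.
Kcna3 and Kcna10, first stretch: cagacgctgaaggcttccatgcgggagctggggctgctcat
Kcna3 and Kcna10, second stretch: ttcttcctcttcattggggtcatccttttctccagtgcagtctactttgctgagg
Kcna10 itself had no count in any library, so no read of these stretches was counted on it. A count of 0 allows up to 0.905, 0.974 and 1.08 CPM in libraries 1, 2 and 3, taken as 3 counts. The upper end of the exact 95% Poisson interval of a count of 0, which is wider on that side, lies at 1.11, 1.20 and 1.33 CPM. Both describe counting error alone, because reads that copy the same molecule are not independent.

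Trpm7 encodes a divalent cation channel fused to a protein kinase, which conducts magnesium and calcium (chromosome 2, 126791565 to 126876230, minus strand). It had 1122, 910 and 838 counts, or 338, 296 and 301 CPM (312 ± 23.2 SD, n = 3). It was highest in library 1, where its interval of 319 to 359 CPM did not overlap that of library 2, 277 to 315 CPM. Trpm6, the only other channel kinase of this kind, had 17, 2 and 5 counts. Trpm7 shared no coding 31-mer with another gene.

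Levels of different genes can be compared only per length. Per kilobase of coding sequence, Kcnn4 stood highest at 136 ± 15.7 CPM, followed by Trpm7 at 54.7 ± 4.08 and Stim1 at 52.4 ± 8.41. Next came Itpr2 at 36.2 ± 3.34, Kcna3 at 31.3 ± 5.85, Itpr1 at 20.9 ± 2.17 and Orai1 at 19.9 ± 2.59. Stim2 at 17.8 ± 2.80, Orai2 at 15.5 ± 3.15 and Itpr3 at 11.1 ± 1.57 CPM per coding kilobase were lowest. Among neighbours in this order, the library ranges separated Kcnn4 from Trpm7, Stim1 from Itpr2 and Kcna3 from Itpr1, and the other 6 neighbouring pairs overlapped. The median of the 10 was 26.1 CPM per coding kilobase, against 30.7 over 10542 detected genes with a coding length. Kcnn4 lay at percentile 88.7 of 14916 genes with a count and a coding length, and Itpr3 at percentile 47.9.

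The scale decides part of this order. Per kilobase of all annotated exons, which include untranslated regions and retained introns, Kcnn4 had the highest mean at 33.9 ± 3.92 CPM, followed by Trpm7 at 27.5 ± 2.05. Kcna3, with 1902 exonic bases in all, came next at 26.1 ± 4.87 CPM per exonic kilobase, and in library 1 it stood at 30.9, above the lowest Kcnn4 library at 30.4. The library ranges of Kcnn4 and Kcna3 thus overlapped on this scale. Stim1 stood behind Kcna3 and Itpr2 at 12.7 ± 2.03, and Orai2, with 6077 exonic bases but 792 coding bases, was lowest at 2.02 ± 0.411.

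**Figure D2:**
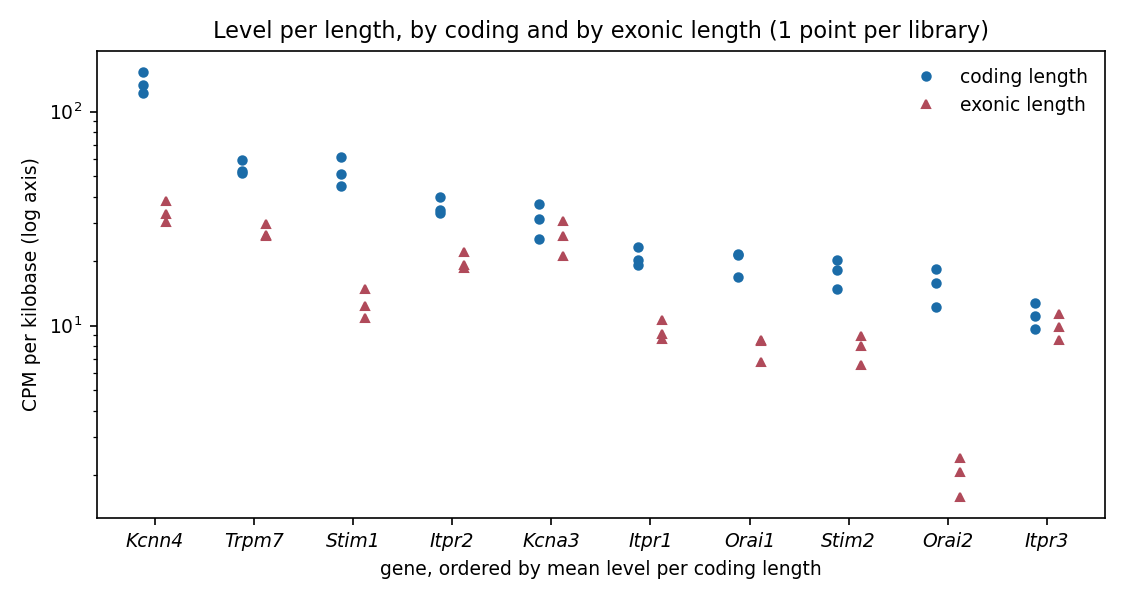
CPM per kilobase of coding length (circles) and of exonic length (triangles) on a log axis, 1 point per library, with genes ordered by the coding scale. Kcnn4 is highest in every library on the coding scale, while on the exonic scale it overlaps Kcna3, and Orai2 is lowest there in every library.

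Within families, shares of counts per coding base were computed in each library. Stim1 made up 73.7%, 80.6% and 68.7% of the Stim family (mean 74.3% ± 5.95 SD, n = 3). Per exonic base its share was 61.6% ± 7.46, still the larger part. Orai3 held 48.5% ± 1.93 of the Orai family, Orai1 28.9% ± 2.21 and Orai2 22.6% ± 4.14, and the libraries' ranges of Orai1 and Orai2 did not overlap. Per exonic base the share of Orai3 was 62.7% ± 0.374, that of Orai1 29.7% ± 1.25 and that of Orai2 only 7.63% ± 1.62. Itpr2 held 52.9% ± 1.61 of the Itpr family, Itpr1 30.6% ± 1.72 and Itpr3 16.4% ± 3.00. Per exonic base the order of Itpr1 and Itpr3 changed, to 24.1% ± 1.81 and 25.3% ± 4.13. Stim1, Orai3 and Itpr2 were the largest members of their families in each library on the coding scale.

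**Figure D3:**
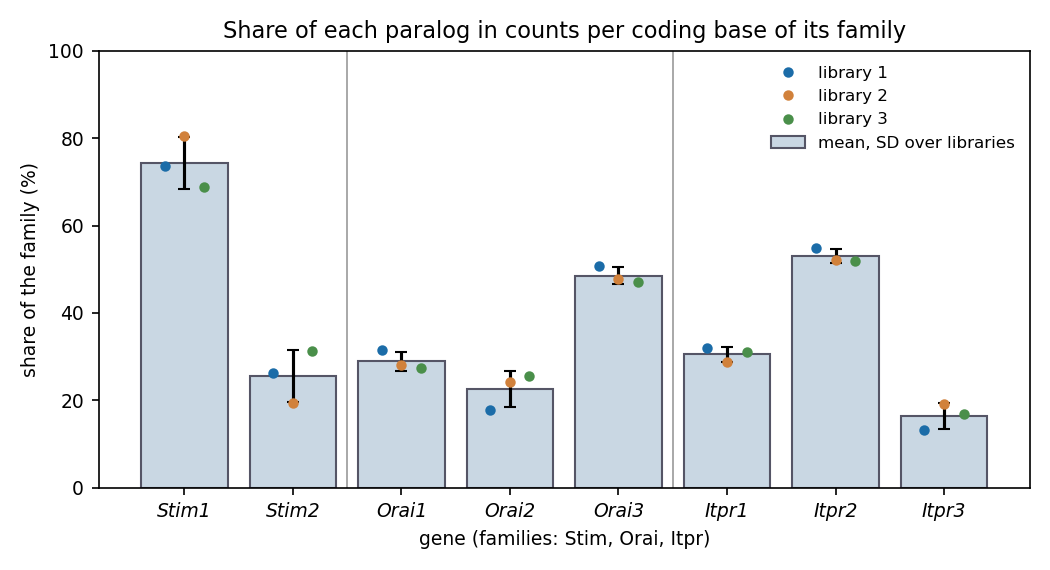
Share of each paralog in the counts per coding base of its family, in percent, as mean (bar), SD over 3 libraries (error bar) and single libraries (points). Stim1, Orai3 and Itpr2 are the largest member of their family in every library.

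Ratios between genes on the coding scale varied by library. Kcnn4 stood 3.29-fold, 5.24-fold and 4.89-fold above Kcna3 in libraries 1, 2 and 3 (mean 4.47 ± 1.04 SD, n = 3). Per exonic base the ratio of Kcnn4 to Kcna3 was 0.984, 1.57 and 1.46 (mean 1.34 ± 0.311), so Kcna3 was marginally the higher in library 1. Stim1 stood 2.38-fold, 2.87-fold and 2.64-fold above Orai1 (mean 2.63 ± 0.248), and per exonic base the mean ratio was 1.60. Itpr2 stood 1.71-fold, 1.82-fold and 1.66-fold above Itpr1 (mean 1.73 ± 0.0790). The ratios of Stim1 to Orai1 and of Itpr2 to Itpr1 thus varied less between libraries than that of the potassium channels. Other ratios within families did not all do so. The SD of the log2 ratio was 0.463 for Stim1 to Stim2, 0.389 for Orai1 to Orai2 and 0.313 for Itpr2 to Itpr3. For Kcnn4 to Kcna3 it was 0.363. The part of counting error in these SDs was not tested, and it is largest for ratios with Orai1 or Orai2, which had the fewest counts.

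A chi-square test then set each gene's counts against the library totals. It covered the 10043 genes whose counts summed to at least 30, with p-values adjusted by the Benjamini-Hochberg method. This test compares libraries against Poisson noise and says nothing of conditions. Of the 10 genes, 7 differed at an adjusted p under 0.05, beside 22.7% of all genes tested and 22% of the 7600 genes with summed counts in the range of these 10. Trpm7, Itpr2, Itpr1 and Kcna3 were highest in library 1, Stim1 and Itpr3 in library 2, and Kcnn4 in library 3. Of all genes tested, 7.61%, 7.03% and 8.04% passed with library 1, 2 or 3 highest. Stim2, Orai1 and Orai2 did not pass, with adjusted p of 0.149, 0.574 and 0.357 by the chi-square test. They also had the fewest summed counts of the 10, at 368, 168 and 112, while Trpm7 had the most at 2870. The background over that wide range is therefore not matched to the counts of each gene, and a matched share was not computed.

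Stim1 had the smallest adjusted p by the chi-square test, 0.000731, with CPM 1.37-fold higher in library 2 than in library 3. Itpr2 had an adjusted p of 0.00401 by that test at 1.19-fold between its highest and lowest library, and Kcnn4 0.00803 at 1.25-fold. The other 4 had adjusted p of 0.0165 (Itpr1), 0.0209 (Itpr3), 0.0233 (Trpm7) and 0.0236 (Kcna3) by the chi-square test. The largest ratio among the 7 was that of Kcna3, 1.46-fold. The index of dispersion, the chi-square statistic over its 2 degrees of freedom, equals 1 on average under Poisson noise. Its median was 5.59 over the 10 genes and 1.89 over all genes tested, which were not matched on counts. By edgeR's quasi-likelihood test of each library against the other 2, which allows for spread between libraries, none of the 10 passed, beside 0.395% of 9620 genes tested. Stim1 alone had an unadjusted p under 0.05 by edgeR. DESeq2 also gave none of the 10, and none at an unadjusted p under 0.05, beside 0.0132% of 15171 genes.

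**Figure D4:**
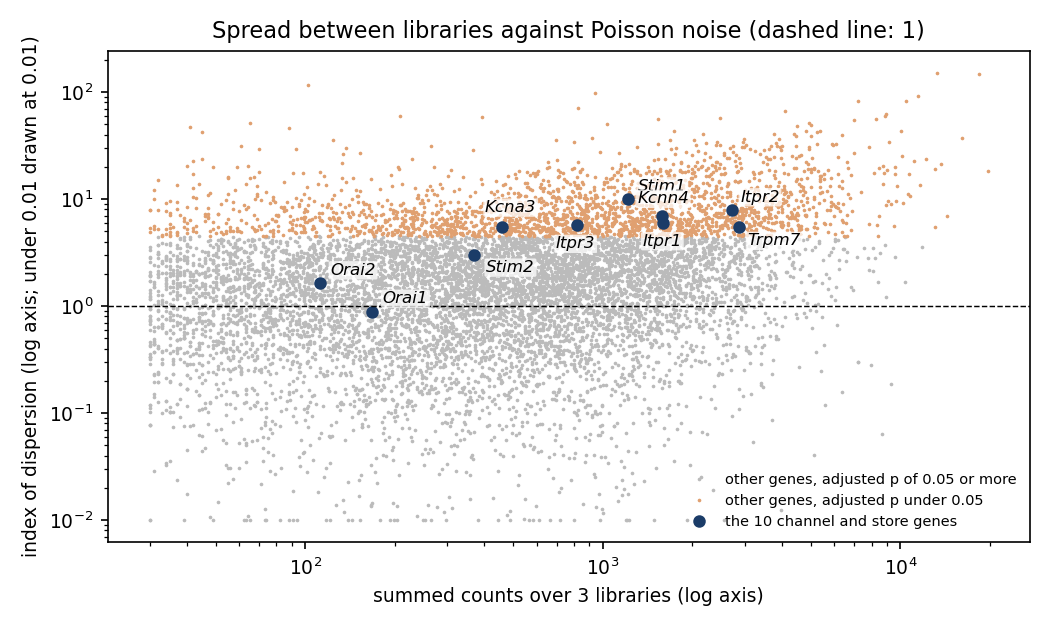
Index of dispersion between libraries against summed counts, both on log axes, for all 10043 genes tested, with the 10 calcium genes named. Orai1 lies near the Poisson value of 1 (dashed line), and 7 of the 10 lie among the genes past the adjusted p threshold.

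The calls depended on which libraries were tested, as they did over all genes. Of all genes, 2277 differed with all 3 libraries, and 1247, 1466 and 904 without library 1, 2 and 3. When library 1 was left out, only Stim1 passed the chi-square test (adjusted p = 0.000449). Without library 2, Itpr2 and Kcnn4 passed, with adjusted p of 0.00450 and 0.00365 by the chi-square test. Without library 3, Itpr1, Itpr2, Itpr3, Kcna3 and Trpm7 passed, with adjusted p of 0.0144 to 0.0323 by that test. No gene of the 10 passed in all 3 of these settings.

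Differences between libraries were also set beside coding GC content. Coding GC content was 39.4% in Trpm7, 50.8% in Itpr2, 50.9% in Itpr1 and 51.1% in Stim2, the 4 lowest, and each had a lower CPM in library 2 than in library 1. Kcna3, at 58.1% GC, was also lower in library 2. Stim1 (54.3%), Itpr3 (57.03%), Orai2 (60.98%) and Kcnn4 (62.7%) were higher in library 2 than in library 1, and Orai1 (63.3%) was nearly equal at 19.5 and 19.6 CPM. Over all genes with 100 or more summed counts, the median log2 ratio of library 2 to library 1 was -0.04 in the lowest of 5 equal classes of coding GC content and 0.12 in the highest. For library 3 to library 1, the medians of these classes were 0.02 and 0.06. Against the summed counts of genes of like GC content, a setting chosen after seeing the data, 6 of the 10 passed (20.8% of all genes), and Itpr3 did not (adjusted p = 0.0796 by the chi-square test).

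Marker lists also moved between libraries. The B cell markers summed lowest in library 1 and highest in library 3. Of the 10 tested, 9 passed the chi-square test, beside 22.7% of all genes tested. Of those 9, 3 were highest in library 2 and 6 in library 3. The Treg and T cell markers summed to 4435, 4558 and 4821 CPM in libraries 1, 2 and 3. Of the 10 tested, 7 passed the chi-square test, 5 of them highest in library 3. The plasma cell markers, 3 of 6 detected, summed to 232, 234 and 217 CPM, most of it Prdm1, which Treg cells also express, while Igha had 12, 68 and 128 counts and Jchain 6, 14 and 68. Monocyte and macrophage markers, 5 of 12 detected, were highest in library 2, with sums of 424, 499 and 412 CPM. Most of those sums was Ccr2, which T cells also express. Of the 6 tested, 4 differed by the chi-square test, all highest in library 2, among them Lyz2 with 1, 49 and 11 counts and Apoe with 11, 84 and 29. Dendritic cell markers, 1 of 8 detected, were also highest in library 2 at 6.33, 24.7 and 12.2 CPM, with Clec9a at 0 in all libraries. NK cell markers went the other way, at 99.8, 81.5 and 73.3 CPM, most of it Gzma and Prf1. CD8 T cell markers summed to 24.1, 27.3 and 38.1 CPM, and erythroid and platelet markers to 6.03, 10.4 and 24.1. Neutrophil markers summed to 0, 4.55 and 2.52 CPM, and stromal and endothelial markers, mostly Pecam1, to 165, 168 and 147. The part of GC content beyond that setting, and of these markers, in the results was not tested.

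The wider pathway was described with 8 lists of 119 other genes, of which 74 were detected, beside 47.3% of all genes. Of the 71 tested, 20 differed between libraries by the chi-square test, beside 22.7% of all genes, and none by edgeR or DESeq2, with 12 and 4 at an unadjusted p under 0.05. The lists differed in how many of their genes were present.

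Among STIM and ORAI partners, 6 of 7 were detected. Saraf, which inactivates STIM-gated entry, had 1230, 1177 and 1082 counts and stood far above Stim1 per length, at 350 ± 8.36 CPM per coding kilobase. Orai3 followed at 33.4 ± 3.75 on that scale. Cracr2a, a calcium-binding regulator of ORAI1 and STIM1, had 120, 63 and 56 counts and was the only partner that differed (adjusted p = 0.000572 by the chi-square test), and 28.5% of its coding 31-mers were shared with Gm43634. Cracr2b had 0, 1 and 5 counts.

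Upstream, 11 of 15 genes of IP3 production were detected. The adaptors Lat and Lcp2, which hold phospholipase C near the receptor, were highest at 686 ± 36.8 and 514 ± 5.21 CPM per coding kilobase. The phospholipase gene Plcg1 had 604, 552 and 452 counts, while Plcg2, the form that B cells and myeloid cells use, had 0, 23 and 6. Plcb2, a phospholipase that G protein-coupled receptors use, had 226, 168 and 235 counts and was lowest in library 2 (adjusted p = 0.00104 by the chi-square test). Plcb1 had no count.

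In the store, 12 of 15 genes were detected. The SERCA pump gene Atp2a3, which refills the store in blood cells, had 1766, 1942 and 1287 counts, or 173 ± 27.01 CPM per coding kilobase. Its housekeeping relative Atp2a2 had 271, 228 and 206 counts, or 24.4 ± 1.41 on that scale, so Atp2a3 stood 7.13-fold ± 1.25 higher. Atp2a3 was highest in library 2 and had the smallest adjusted p of the pathway, 4.71e-15 by the chi-square test. Tmbim6 and the store's calcium buffer Calr were highest per length at 568 ± 43.3 and 420 ± 9.53 CPM per coding kilobase. Tmbim6 had 1307, 1305 and 1277 counts, and its CPM differed between libraries (adjusted p = 0.00528 by the chi-square test). The ryanodine receptors, release channels of muscle and nerve, were low: Ryr2 had 1, 1 and 0 counts, Ryr1 1, 2 and 6, and Ryr3 30, 31 and 34. Exons of Ryr3 overlap those of Aven on the opposite strand over 916 bases, so its counts are uncertain.

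Calcium export had 2 of 7 genes detected. The plasma membrane pump gene Atp2b1 had 1579, 1251 and 1200 counts (111 ± 8.99 CPM per coding kilobase) and Atp2b4 had 383, 292 and 247 (24.6 ± 3.46). Both were highest in library 1 (adjusted p = 0.00143 and 0.0152 by the chi-square test). The exchanger genes Slc8a1 and Slc8a2 and the pump gene Atp2b3 had no count in any library.

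All 8 genes on the mitochondrial calcium list were detected. The regulator Smdt1 and the inhibitory pore subunit Mcub were highest per length, at 241 ± 14.2 and 74.97 ± 3.58 CPM per coding kilobase. Mcub, with 249, 252 and 211 counts, stood above the pore gene Mcu, with 42, 43 and 21. Micu2 and Letm1 differed between libraries (adjusted p = 0.000221 and 0.00896 by the chi-square test), both highest in library 2. Micu3 was lowest at 15, 7 and 15 counts.

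Downstream, 15 of 18 genes of calmodulin, calcineurin and NFAT were detected. Calm2, a calmodulin gene, stood at 439 ± 36.2 CPM per coding kilobase, and 64.7% of its coding 31-mers also occur in other genes. Nfatc1 had 1175, 1199 and 843 counts (118 ± 14.7 CPM per coding kilobase) and was lowest in library 3 (adjusted p = 5.23e-06 by the chi-square test). Nfatc2 had 117, 116 and 94 counts (11.6 ± 0.642 on that scale), and Nfatc4 had none. The calcineurin catalytic subunit gene Ppp3ca had 144, 136 and 100 counts (26.3 ± 2.91). The regulatory subunit gene Ppp3r1 differed (69, 115 and 101 counts, adjusted p = 0.00190 by the chi-square test), but 90.0% of its coding 31-mers were shared with Wdr92. Its relative Ppp3r2 and the calcineurin regulator Rcan2 had no count.

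Of 19 other potassium channel genes and regulators, 5 were detected. The Kv1 auxiliary subunit gene Kcnab2 was highest, with 733, 727 and 489 counts (184 ± 27.4 CPM per coding kilobase), and was lowest in library 3 (adjusted p = 3.78e-05 by the chi-square test). Phpt1, a phosphatase that inhibits KCa3.1, had 161, 178 and 177 counts, but all of its coding 31-mers (100%) were shared with Mamdc4. The relatives of Kcna3 and Kcnn4 on the list, Kcna1, Kcna2, Kcna5, Kcnn1, Kcnn2 and Kcnn3, had no count in any library. Kcnc1 also had none, and Nme2, which activates KCa3.1, had none, but 100% of its coding 31-mers also occur in other genes, so its level is unknown.

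Of 30 other calcium and magnesium channel and transport genes, 15 were detected. The cation channel gene Trpv2 was highest, with 1532, 1475 and 1062 counts (194 ± 22.9 CPM per coding kilobase). The magnesium transport gene Magt1 followed at 67.2 ± 3.36 on that scale. Trpv2 and the ATP-gated channel gene P2rx7 (318, 227 and 220 counts) differed between libraries (adjusted p = 9.16e-07 and 0.0306 by the chi-square test), lowest in library 3 and library 2. Trpc6, Trpv1, P2rx1 and Cacna1f had no count.

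**Figure D5:**
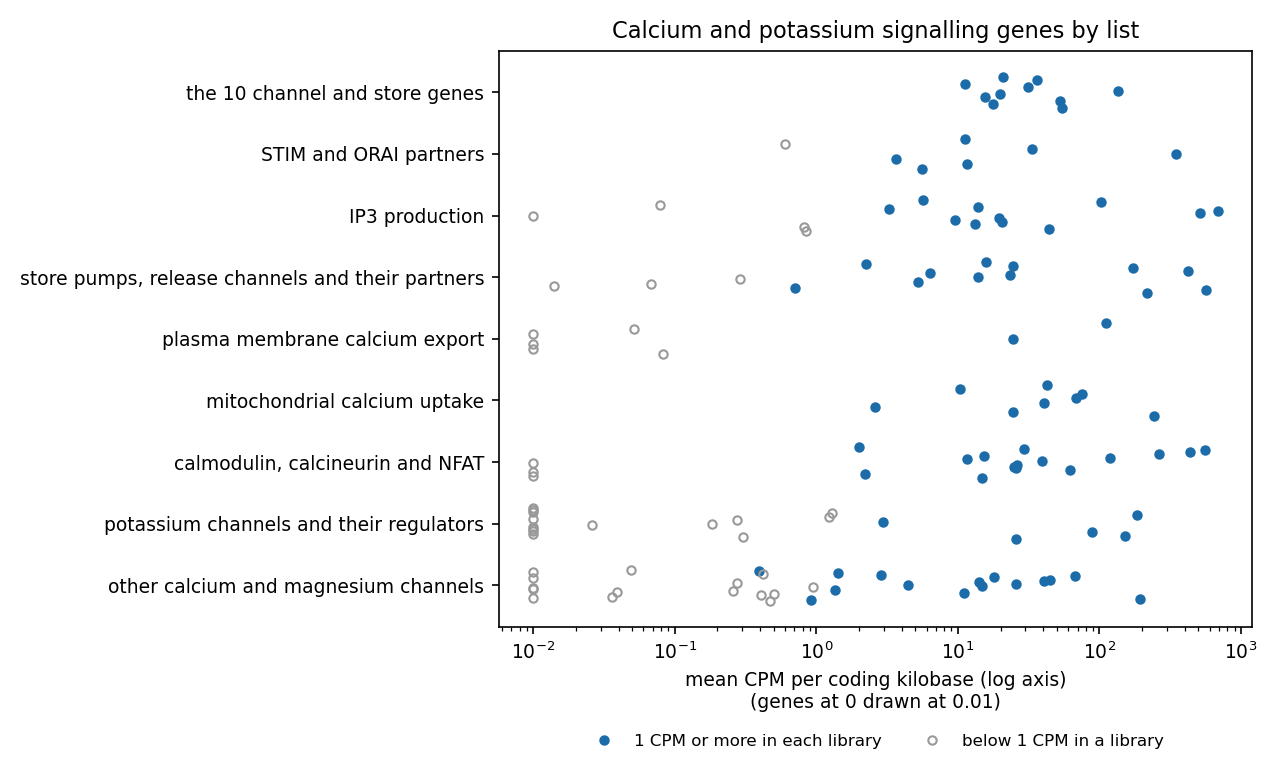
Mean CPM per coding kilobase on a log axis for the 10 calcium genes and the 8 lists of 119 other genes, with filled points for genes at 1 CPM or more in each library and open points for the rest. Genes at 0 are drawn at 0.01, and the potassium channel list holds 8 of them.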

How the data were processed

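RNA with poly(A) tails was sequenced in 3 libraries, with RNA sheared to a size range of 100 to 300, per the labels. The authors deposited whole-number counts per gene for 22457 Ensembl identifiers per library, unscaled, from an mm10 alignment with the GENCODE M4 annotation, per the notes deposited with the tables. For the aligner, counting program, strand use and duplicate handling, the entry is: not given in the sources used here.

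Symbols, coordinates and lengths came from GENCODE M21 (GRCm38, the same assembly), with 22195 identifiers matched and 262 unmatched (0.136% of counts). Coding and exonic lengths are unions over a gene's transcripts. Coding 31-mers were searched in the transcripts of all other genes on both strands. Promoters are from RefSeq (GRCm38.p6).

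Library totals of 2782259 to 3316275 make 1 count worth 0.302 to 0.359 CPM. Python 3.11.15 with scipy 1.17.1 gave the chi-square tests and exact Poisson intervals. R 4.3.3 with edgeR 4.0.16 (TMM, filterByExpr) and DESeq2 1.42.0 gave the alternative tests. The chi-square test was also run on simulated Poisson counts with known differences between libraries. It recovered 83% of 100 genes changed 2-fold and 95% of 100 changed 4-fold. On the same simulated counts edgeR recovered 84% and 90%, and DESeq2 52% and 80%. The calcium genes that passed differed by at most 1.46-fold, and recovery of changes that small was not simulated. The simulated counts lacked the spread of real libraries beyond Poisson noise, so they cannot show how the tests behave under it.

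The members and lists were chosen with earlier results of these data known. The text names every gene of the 10, and in each pathway list the 2 detected genes with the highest level per coding length, the gene with the lowest count, up to 2 with the smallest adjusted p among those that passed, and Orai3, Atp2a2, Atp2a3, Nfatc1, Nfatc2 and Ppp3ca. Some genes that this rule selects are not reported here. Plcg1, Plcg2, Ryr1, Ryr3, Mcu, Trpm6 and Kcna10 were chosen after their values were seen. Alternatives covered scaling, count filters, detection limits, lengths, other tests and leaving out libraries. Library sizes within GC content classes or from genes under 0.2 counts per coding base were added after seeing the data.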

Additional observations from a re-analysis of the deposited data

How the results depend on the processing

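No paired analysis was possible because the libraries form 1 group. The number of all genes that differed between libraries was 2277 by the chi-square test, 38 by edgeR and 2 by DESeq2, and 904 to 1466 when 1 library was left out. Of the 10 calcium genes, 7 differed, against 0 by edgeR, 0 by DESeq2 and 1 to 5 when 1 library was left out. Of the other pathway genes, 20 differed, against 0 by edgeR, 0 by DESeq2 and 9 to 15 when 1 library was left out. Against the summed counts of genes under 0.2 counts per coding base, 5 of the 10 passed, beside 24.5% of all genes tested. Itpr1 (adjusted p = 0.0503) and Trpm7 (adjusted p = 0.102) did not pass there, by the chi-square test. TMM or DESeq2 scaling and no count filter kept the number at 7. With exonic in place of coding length, the median level per length was 11.6 in place of 26.5 CPM per kilobase, taken per library and averaged, the share of Stim1 was 61.6% and that of Itpr1 24.1%. All 10 genes were detected at a limit of 5 CPM and 9 at 10 CPM, where Orai2 was lost. Poisson counting limits Orai1 and Orai2 most, with 112 to 168 summed counts.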
